A study of Mus musculus with 9 samples.

Results

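The genes described here are 10 members of the apoptosis machinery of RAW264.7 cells, chosen by symbol from the deposited expression tables and found in all 9 libraries. They are 10 of 12474 rows per table. RAW264.7 is an established mouse macrophage-like line from a virus-induced tumour, and every library carries the WT genotype. Mock cells (3 libraries) had no stimulus. The M1 group (3 libraries) was polarized with lipopolysaccharide (LPS, 100 ng/ml) and mouse interferon gamma (50 ng/ml), and the group called I (3 libraries) had the same stimuli together with 20 mM potassium iodide. The design text names a comparison of the 3 groups. No group received a different salt, so the iodide ion, the potassium ion and a higher osmolarity cannot be told apart. How long the cells were treated is not given in the sources used here.

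BCL2 family proteins decide whether the outer mitochondrial membrane is made permeable. Pro-survival members (BCL-XL, MCL1, A1) hold the pore formers BAX and BAK in check, and BH3-only proteins such as BIM, BID and BAD antagonize the pro-survival members or activate the pore formers. Upstream, the ubiquitin ligases cIAP1 and cIAP2 and the caspase-like protein c-FLIP act at tumour necrosis factor (TNF) receptor complexes, where they restrain caspase activation and favour NF-kB signalling. In macrophages exposed to LPS these brakes are known to set how long the activated cell lives.

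Library totals recovered from the values were between 17431070 and 25470730 fragments. Levels are in FPKM, which divides fragments by exon length and by the library's total, and at that depth 1 fragment on a 1 kb gene equals 0.039 to 0.057 FPKM. The members were covered by 8 fragments in the thinnest case (Bcl2a1b in 1 I library) and by 42743 in the deepest (Mcl1 in another I library). Of 10 macrophage markers, 9 were listed, and their summed level was 4718 to 4807 FPKM in the Mock libraries, 3347 to 3457 in those of M1 and 2454 to 2567 in those of I. Mrc1 is not analysed here. The single markers went both ways, and the sum is carried by Lyz2, at 3111 to 3196 FPKM over the Mock libraries, 1114 to 1174 over M1 and 657 to 702 over I. Csf1r was also lower in M1 (68.9 to 70.9 FPKM) than in Mock (339 to 346), while Cd14 was higher (1519 to 1571 against 745 to 763), as was Adgre1 (101 to 105 against 21.1 to 22.6). Of 8 lymphocyte markers only Lck was listed, at 3.29 to 5.26 FPKM over all libraries. The listed 3 of 5 dendritic cell markers summed to at most 0.640 FPKM, and no neutrophil, fibroblast or epithelial marker was listed. No row holds a 0 in any library, so an unlisted marker is not shown to be absent. Whether these marker levels bear on the members was not tested, and in bulk RNA fewer cells of a type and less RNA per cell cannot be told apart. The labels do not state whether the libraries of a group are separate cultures, so the p-values measure the spread between libraries, which may be technical.

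Start-site sequences are shown first for the genes on which the results turn. They come from RefSeq (GRCm38.p6), run from 250 bases before to 50 bases after a start site, and were found for all 10 members. Both strands were searched for the NF-kB (kB) motif, the NFAT5 motif and the interferon gamma element TTCNNNGAA (GAS). The AP-1-like letters TGANTCA, where N is any base, and the FOXO site GTAAACA were searched as well. The NFAT5 motif was searched because that factor is known for responses to high salt. Capitals mark a match, and a match is a description of the letters only. The first set is the Bcl2a1 cluster on chromosome 9, shown because its near-identical copies limit what can be said of Bcl2a1b. Bcl2a1a (chr9:88956670-88956969, plus strand), Bcl2a1b (chr9:89199023-89199322, plus strand) and Bcl2a1d (chr9:88731801-88732100, minus strand) follow.
Bcl2a1a: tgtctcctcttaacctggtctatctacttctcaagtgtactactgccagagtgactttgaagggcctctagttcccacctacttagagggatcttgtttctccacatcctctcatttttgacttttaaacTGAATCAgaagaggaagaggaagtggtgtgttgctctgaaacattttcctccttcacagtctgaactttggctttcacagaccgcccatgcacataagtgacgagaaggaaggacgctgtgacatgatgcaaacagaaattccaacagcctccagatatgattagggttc
Bcl2a1b: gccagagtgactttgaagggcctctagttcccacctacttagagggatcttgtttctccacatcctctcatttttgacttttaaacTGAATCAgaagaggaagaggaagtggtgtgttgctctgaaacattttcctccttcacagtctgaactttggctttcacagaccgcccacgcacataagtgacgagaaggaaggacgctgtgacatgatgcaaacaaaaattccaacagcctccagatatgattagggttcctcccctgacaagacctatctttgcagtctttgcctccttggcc
Bcl2a1d: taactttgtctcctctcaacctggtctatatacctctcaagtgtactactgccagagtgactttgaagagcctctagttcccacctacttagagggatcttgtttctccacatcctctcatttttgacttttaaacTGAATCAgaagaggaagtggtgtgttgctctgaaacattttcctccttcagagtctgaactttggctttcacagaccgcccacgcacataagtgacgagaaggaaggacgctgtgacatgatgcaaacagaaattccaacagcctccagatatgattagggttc

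All 3 windows hold the same AP-1-like letters, TGAATCA, with A as the middle base. These letters were found 120, 164 and 114 bases before the start site of Bcl2a1a, Bcl2a1b and Bcl2a1d in that order. The searched motif TGANTCA reads alike on both strands and each place was taken as 1 match. With any middle base, this motif occurs in 7.81% of 32851 mouse promoter windows of this length. The windows of Bcl2a1a and Bcl2a1d are 94.1% identical and those of Bcl2a1a and Bcl2a1b 73.8%, and RefSeq places the Bcl2a1b start farther downstream in the shared sequence.

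The second set is shown because Mcl1 and Bcl2l11 had the largest rises of the members with iodide, and Bcl2l1 the largest rise with polarization. The windows are the single one of Mcl1 (chr3:95658471-95658770, plus strand), 1 of 2 of Bcl2l11 (chr2:128125788-128126087, plus strand) and 1 of 3 of Bcl2l1 (chr2:152830668-152830967, minus strand). For Bcl2l11 and Bcl2l1 the window with a match is shown, and their other windows held none of the motifs.
Mcl1: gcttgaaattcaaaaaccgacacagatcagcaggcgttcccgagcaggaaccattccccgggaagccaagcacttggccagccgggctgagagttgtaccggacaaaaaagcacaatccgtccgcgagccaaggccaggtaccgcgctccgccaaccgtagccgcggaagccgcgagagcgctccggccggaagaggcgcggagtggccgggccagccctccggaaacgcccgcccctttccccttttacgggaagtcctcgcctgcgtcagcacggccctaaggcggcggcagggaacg
Bcl2l11: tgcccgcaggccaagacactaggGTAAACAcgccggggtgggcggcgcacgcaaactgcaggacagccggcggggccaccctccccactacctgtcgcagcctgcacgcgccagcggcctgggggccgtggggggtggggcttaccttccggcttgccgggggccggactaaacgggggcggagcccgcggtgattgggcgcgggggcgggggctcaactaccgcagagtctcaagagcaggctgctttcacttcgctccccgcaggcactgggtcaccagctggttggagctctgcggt
Bcl2l1: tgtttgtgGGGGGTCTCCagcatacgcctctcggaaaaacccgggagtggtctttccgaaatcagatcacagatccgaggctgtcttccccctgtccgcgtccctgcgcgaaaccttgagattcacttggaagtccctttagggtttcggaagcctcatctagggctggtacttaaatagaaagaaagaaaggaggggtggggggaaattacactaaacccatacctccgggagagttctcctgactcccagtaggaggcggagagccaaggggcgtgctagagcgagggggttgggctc

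The Mcl1 window held none of the 5 motifs. Bcl2l11 held the FOXO letters 227 bases before the start, and 3.65% of single promoter windows hold them. Bcl2l1 held the kB match GGGGGTCTCC 242 bases before the start, and 4.51% of single windows hold that motif. A gene with several windows has more chances of a match than these shares show. None of the members' windows held the NFAT5 motif (4.96% of all windows) or the GAS letters (8.3%).

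Most of these genes were higher after polarization. In M1 against Mock 7 members rose, 2 fell and 1 did not pass the test (limma on log2(FPKM + 1), Benjamini-Hochberg adjusted p under 0.05). This count stands against a background in which 85.8% of all 11156 genes tested passed, 30.5% as higher and 55.3% as lower. The median log2 fold change was 0.37 for the members and -0.23 for all genes tested. With iodide added to polarization, 5 members rose further, 2 fell and 3 did not pass, while 64.2% of all genes passed, 24.9% as higher and 39.3% as lower. The median in I against M1 was 0.083 for the members and -0.065 for all genes tested. Against Mock, I cells had 6 members higher and 2 lower, where 86.8% of all genes passed, 28.2% higher and 58.6% lower. The comparisons share libraries, so their values are given side by side.

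**Figure D1:**
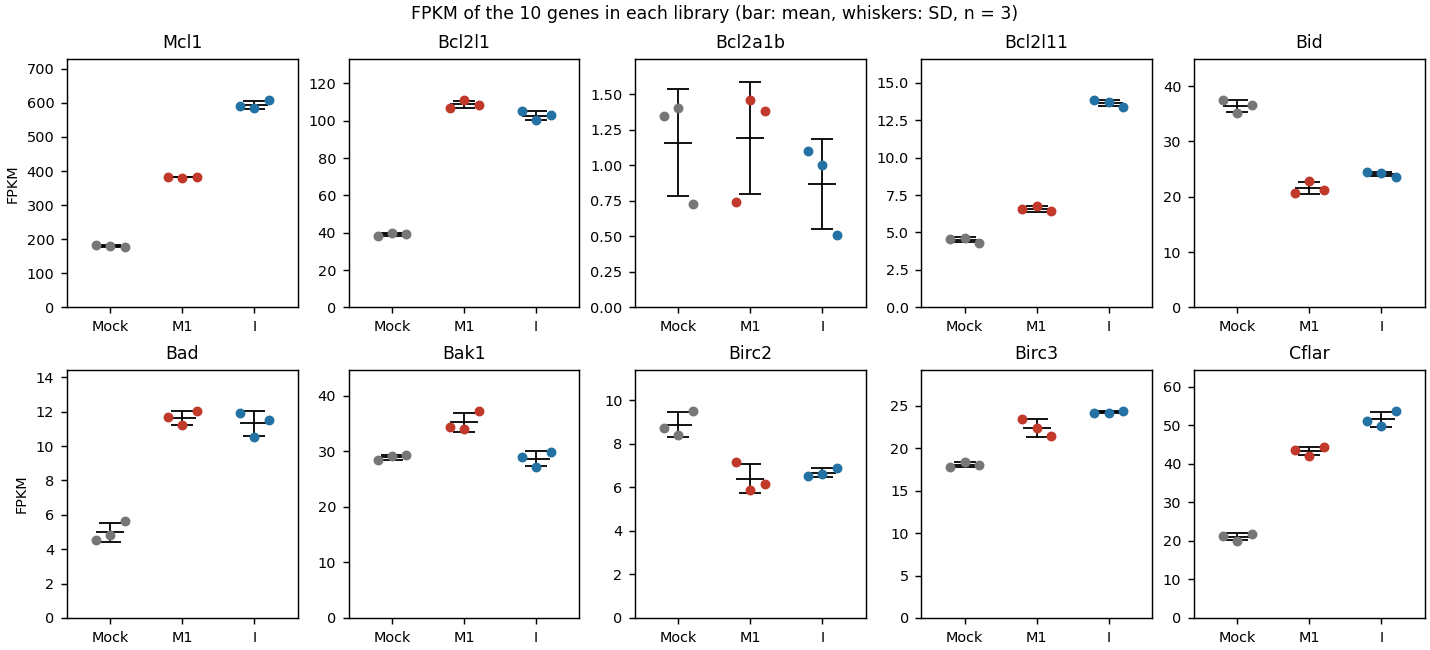
FPKM of each of the 10 genes in every library of the Mock, M1 and I groups, with the group mean and SD (n = 3) and 1 axis per gene. Mcl1 and Bcl2l11 step up from Mock to M1 and again to I, Bcl2l1 and Bad step up once, and the Bcl2a1b points of the groups overlap.

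Mcl1 was the most abundant member in every group. It encodes a short-lived pro-survival protein that binds BIM and BAK (ENSMUSG00000038612.16, chr3:95658788-95663176, plus strand, GRCm38). Its level was 182, 181 and 176 FPKM in Mock, 382, 381 and 383 in M1 and 590, 586 and 607 in I. No library of one group reached the range of another. The mean rose from 179.8 ± 3.16 FPKM (SD, n = 3, as for all means that follow) to 382.1 ± 0.947 in M1, 2.12 times the Mock mean, with a log2 fold change of 1.08 ± 0.024 (SE, limma adjusted p = 6.67e-12). In I it was 594.3 ± 11.3 FPKM, 1.56 times the M1 mean (log2 fold change 0.64, 95% interval 0.58 to 0.69, limma adjusted p = 5.45e-09). This absolute fold change exceeded that of 92.6% of all genes tested. Against Mock the mean in I was 3.30 times as high.

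Bcl2l1, which encodes BCL-XL, had the largest rise of the members in M1 (ENSMUSG00000007659.18, chr2:152780668-152831728, minus strand). Its level was 38.1, 39.9 and 39.4 FPKM in Mock, 107, 111 and 108 in M1 and 105, 100.3 and 103 in I. Both polarized groups lay far above Mock, and the I libraries lay just below the M1 libraries. The mean rose 2.78-fold from 39.1 ± 0.936 to 108.7 ± 1.96 FPKM (log2 fold change 1.45 ± 0.028, limma adjusted p = 2.45e-12). Its mean of 102.8 ± 2.35 FPKM in I was 0.945 times that in M1 (log2 fold change -0.08, 95% interval -0.14 to -0.02, limma adjusted p = 0.0261). That call rests on the scaling, because median-of-ratios (RLE) scaling gave -0.01 with a limma adjusted p of 0.863. It was also lost without either of M1 replicates 2 and 3 or I replicates 2 and 3, left out 1 at a time. Values are for whole genes and do not separate the long and short splice forms of Bcl2l1, nor those of Mcl1 and Cflar.

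The balance of the leading pro-survival genes was followed within libraries. The Mcl1 to Bcl2l1 ratio of FPKM, which a single factor per library leaves unchanged, was 4.79, 4.53 and 4.47 in Mock, 3.57, 3.44 and 3.54 in M1 and 5.62, 5.84 and 5.89 in I. M1 had the lowest ratios and I the highest, with no overlap. The mean log2 ratio differed by -0.39 in M1 against Mock, by 0.72 in I against M1 and by 0.33 in I against Mock, each with an exact two-sided permutation p of 0.1. That is the smallest value which 3 libraries against 3 allow.

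Bcl2a1b encodes 1 copy of A1, a pro-survival protein of blood cells (ENSMUSG00000089929.1, chr9:89199209-89207827, plus strand). It was the lowest member, at 1.35, 1.40 and 0.728 FPKM in Mock, 0.738, 1.46 and 1.38 in M1 and 1.10, 0.999 and 0.509 in I. The groups overlapped in every comparison. These values rest on 12 to 28 fragments per Mock library, 12 to 26 per M1 library and 8 to 19 per I library, and the 8 fragments of I replicate 3 have an exact 95% Poisson interval of 3.45 to 15.8, for counting error only. The log2 fold change was 0.02 in M1 against Mock (95% interval -0.36 to 0.40, limma adjusted p = 0.917) and -0.23 in I against M1 (-0.61 to 0.15, limma adjusted p = 0.266). Differences inside these intervals are not excluded by these libraries, which hold few fragments of this gene.

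What is counted for Bcl2a1b depends on its copies. Its transcript is 97.9% identical to that of Bcl2a1a and 93.9% identical to that of Bcl2a1d, and 56.8% of its 718 windows of 100 bases also occur in other transcripts. Of its 817 exon bases, 401 also belong to Gm29094 on the same strand, which is not analysed here. The values of all 3 copies are therefore uncertain one by one, and how reads with several matches were counted is not given in the sources used here.

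The other copies moved strongly. Bcl2a1a was at 1.25, 1.47 and 1.21 FPKM in Mock, 13.1, 15.6 and 13.5 in M1 and 2.19, 2.59 and 2.79 in I. It was 10.7 times as high in M1 as in Mock (log2 fold change 2.70, limma adjusted p = 6.91e-11) and 5.57 times as high in M1 as in I (I against M1 -2.10, limma adjusted p = 6.67e-09). Bcl2a1d, by far the most abundant copy, was at 52.7, 53.4 and 46.3 FPKM in Mock, 96.1, 93.1 and 89.4 in M1 and 34.2, 31.6 and 33.7 in I. Its log2 fold change was 0.86 in M1 (limma adjusted p = 3.19e-08) and -1.46 in I against M1 (limma adjusted p = 4.44e-09). Both copies thus rose with polarization and were lower with iodide, and for Bcl2a1d the I libraries lay below Mock as well.

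The sum of the copies is less sensitive to how reads are divided among them, although reads that were dropped, counted several times or assigned to Gm29094 would still change it. Bcl2a1d makes up most of it. It was 55.3, 56.3 and 48.3 FPKM in Mock, 110 in M1 replicates 1 and 2 and 104 in M1 replicate 3, and 37.5, 35.2 and 37.0 in I. The groups did not overlap. The mean in M1 was 2.03 times that in Mock and 2.96 times that in I, and Bcl2a1b held 0.671% to 2.93% of the sum in any library. Entered in the fit in place of Bcl2a1b, a setting added after the data had been seen, the sum gave log2 fold changes of 1.01 in M1 against Mock (limma adjusted p = 7.34e-09), -1.54 in I against M1 (limma adjusted p = 2.94e-09) and -0.53 in I against Mock (limma adjusted p = 2.15e-06). The pro-survival genes thus split in I cells, where Mcl1 was above M1 and the summed Bcl2a1 copies were below it.

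**Figure D2:**
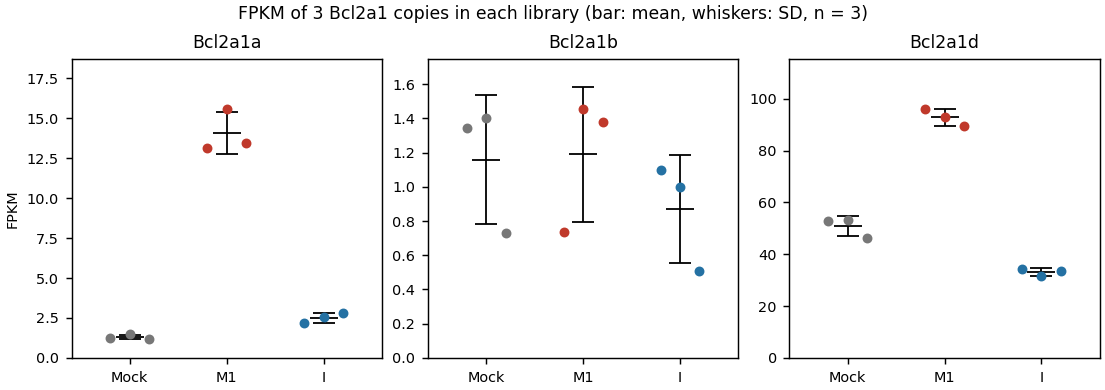
FPKM of Bcl2a1a, Bcl2a1b and Bcl2a1d in each library of the 3 groups, with the group mean (bar) and SD (whiskers, n = 3) and separate linear axes from 0. Bcl2a1a and Bcl2a1d are highest in all 3 M1 libraries, and the Bcl2a1b groups overlap between 0.509 and 1.46 FPKM.

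Among the death-promoting members, Bcl2l11 stood out with iodide. It encodes BIM, a BH3-only protein that binds every pro-survival member (ENSMUSG00000027381.16, chr2:128126038-128162547, plus strand). Its level was 4.60, 4.66 and 4.31 FPKM in Mock, 6.53, 6.77 and 6.41 in M1 and 13.8, 13.7 and 13.4 in I. The groups did not overlap in any comparison. The rise was 1.45-fold in M1 (log2 fold change 0.46 ± 0.040, limma adjusted p = 6.71e-07) and a further 2.07-fold in I (6.57 ± 0.182 to 13.6 ± 0.212 FPKM, log2 fold change 0.95, 95% interval 0.86 to 1.04, limma adjusted p = 1.15e-08). The absolute change with iodide exceeded that of 97.9% of all genes tested and was the largest of the members.

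BIM binds MCL1, and the level of Bcl2l11 relative to Mcl1 was therefore followed within libraries. The ratio was 0.0252, 0.0258 and 0.0244 in Mock, 0.0171, 0.0178 and 0.0167 in M1 and 0.0234, 0.0233 and 0.0221 in I. M1 was lowest, and I lay between M1 and Mock without overlap. The mean log2 ratio differed by -0.55 between M1 and Mock, by 0.42 between I and M1 and by -0.13 between I and Mock, with an exact two-sided permutation p of 0.1 in each. Per length, Mcl1 remained by far the more abundant transcript in every library.

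Bid, whose product is cleaved by caspase 8 and carries death receptor signals to mitochondria, fell with polarization (ENSMUSG00000004446.12, chr6:120891930-120916853, minus strand). It was at 37.4, 35.2 and 36.5 FPKM in Mock, 20.7, 22.9 and 21.2 in M1 and 24.4, 24.3 and 23.6 in I. Every polarized library lay below every Mock library, and the I libraries lay just above those of M1. The Mock mean was 1.68 times the M1 mean (log2 fold change -0.73 ± 0.039, limma adjusted p = 9.37e-09), and the I mean was 1.12 times the M1 mean (0.15 ± 0.039, limma adjusted p = 0.00539). Of its exon bases 17.7% overlap Bcl2l13 on the other strand.

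Bad encodes a BH3-only protein that phosphorylation keeps away from BCL-XL (ENSMUSG00000024959.14, chr19:6941861-6951899, plus strand). It was at 4.54, 4.80 and 5.62 FPKM in Mock, 11.7, 11.2 and 12.0 in M1 and 11.9, 10.5 and 11.5 in I. Both polarized groups were above Mock, and they overlapped with each other. Bad rose 2.34-fold in M1 (4.99 ± 0.561 to 11.7 ± 0.417 FPKM, log2 fold change 1.08 ± 0.066, limma adjusted p = 3.04e-08), and in I against M1 the log2 fold change was -0.04 (95% interval -0.19 to 0.11, limma adjusted p = 0.621). Gpr137 on the opposite strand shares 20.5% of the Bad exon bases and moved from 5.20 ± 0.298 to 12.1 ± 0.311 FPKM in M1 (log2 fold change 1.08, limma adjusted p = 7.79e-10). Whether the counting used strand is not given in the sources used here, so reads of the shared bases cannot be told apart.

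Bak1, the gene of the pore former BAK, showed small changes in opposite directions (ENSMUSG00000057789.14, chr17:27019810-27029009, minus strand). It was at 28.4, 29.1 and 29.3 FPKM in Mock, 34.3, 34.0 and 37.2 in M1 and 29.0, 27.2 and 29.9 in I. The M1 libraries lay above all others, while I and Mock overlapped. The log2 fold change was 0.27 ± 0.042 in M1 (limma adjusted p = 9.42e-05) and -0.29 ± 0.042 in I against M1 (limma adjusted p = 0.00015). Between I and Mock it was -0.01 (95% interval -0.11 to 0.08, limma adjusted p = 0.769), but this comparison depends on the scaling, since RLE gave 0.35 with a limma adjusted p of 8.53e-06. Ggnbp1, which overlaps 25.5% of the Bak1 exon bases on the other strand, was below 0.3 FPKM in its group means.

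**Figure D3:**
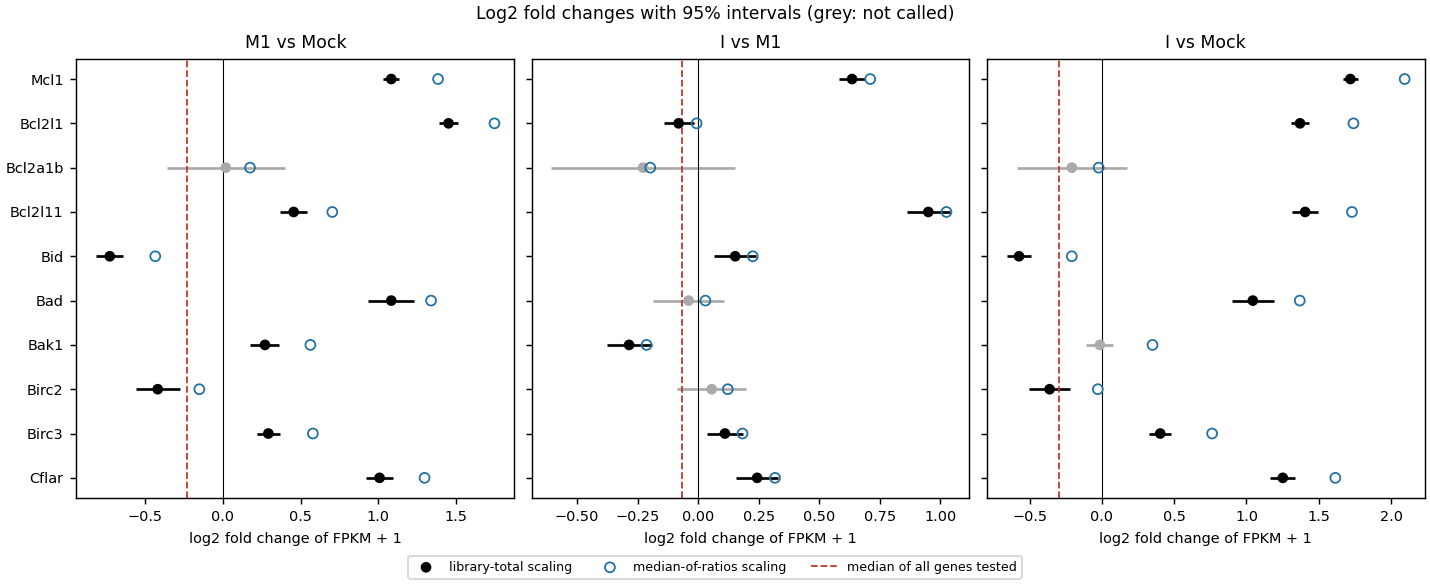
Log2 fold changes of FPKM + 1 for the 10 genes in the 3 comparisons of groups, where filled points with 95% intervals are scaled by library total (grey where the limma test was not passed) and open points by RLE. The dashed line is the median of all genes tested (-0.23, -0.065 and -0.30), and Bcl2l11 and Mcl1 lie farthest to the right in I vs M1.

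Cflar encodes c-FLIP, a relative of caspase 8 that blocks its activation (ENSMUSG00000026031.15, chr1:58711508-58758884, plus strand). It was at 21.3, 20.1 and 21.8 FPKM in Mock, 43.6, 42.1 and 44.3 in M1 and 51.2, 49.7 and 53.7 in I. The groups were separate in every comparison. The rise was 2.06-fold in M1 (21.1 ± 0.9 to 43.4 ± 1.15 FPKM, log2 fold change 1.01 ± 0.039, limma adjusted p = 5.62e-10) and 1.19-fold from M1 to I (51.5 ± 2.03 FPKM, log2 fold change 0.24, 95% interval 0.16 to 0.33, limma adjusted p = 0.000263).

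The cIAP genes are neighbours on chromosome 9 and took different directions. Birc2, the gene of cIAP1 (ENSMUSG00000057367.12, chr9:7818227-7837064, minus strand), was at 8.72, 8.42 and 9.51 FPKM in Mock, 7.15, 5.90 and 6.17 in M1 and 6.52, 6.63 and 6.90 in I. All polarized libraries lay below Mock, and M1 and I overlapped. Its log2 fold change was -0.42 ± 0.064 in M1 (limma adjusted p = 8.8e-05), which was smaller with RLE (-0.15, limma adjusted p = 0.0457) and did not pass with trimmed-mean scaling (-0.14, limma adjusted p = 0.056) or quantile scaling (-0.13, limma adjusted p = 0.0773). In I against M1 it was 0.06 (95% interval -0.09 to 0.20, limma adjusted p = 0.464). In I against Mock it was -0.36 (limma adjusted p = 0.000263), and -0.03 with RLE (limma adjusted p = 0.687).

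Birc3, the gene of cIAP2 and a known NF-kB target (ENSMUSG00000032000.17, chr9:7848699-7873186, minus strand), was at 17.8, 18.4 and 18.0 FPKM in Mock, 23.4, 22.3 and 21.4 in M1 and 24.2, 24.2 and 24.4 in I. Each group lay above the one before it. Of windows of 100 bases, 1.76% in Birc3, 0.33% in Birc2 and 3.99% in Cflar also occur in other transcripts, and none in the 6 members outside the Bcl2a1 cluster and these 3. The rise was 1.24-fold in M1 (log2 fold change 0.29 ± 0.034, limma adjusted p = 8.66e-06) and 1.08-fold from M1 to I (0.11, 95% interval 0.04 to 0.19, limma adjusted p = 0.0151). The latter call was lost without M1 replicate 3, where the log2 fold change was 0.08 with a limma adjusted p of 0.0631. With RLE on all libraries it was 0.18 (limma adjusted p = 0.000898).

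The ratio of Birc3 to Birc2 within a library was 2.05, 2.18 and 1.89 in Mock, 3.28, 3.78 and 3.47 in M1 and 3.71, 3.64 and 3.53 in I. Mock stood apart, and M1 and I overlapped. The mean log2 ratio differed by 0.78 in M1 against Mock and by 0.83 in I against Mock (exact two-sided permutation p = 0.1 in each), and by 0.05 in I against M1 (exact two-sided permutation p = 0.6). A single scaling factor per library leaves this ratio unchanged, while quantile scaling does not.

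**Figure D4:**
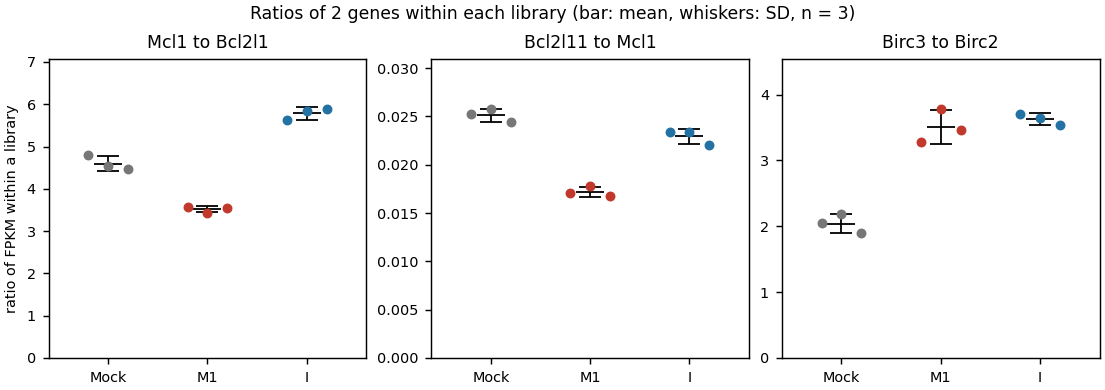
Ratios of FPKM within each library for Mcl1 to Bcl2l1, Bcl2l11 to Mcl1 and Birc3 to Birc2 in Mock, M1 and I, with the group mean (bar) and SD (whiskers, n = 3). M1 has the lowest Mcl1 to Bcl2l1 and Bcl2l11 to Mcl1 ratios, and Mock the lowest Birc3 to Birc2 ratios.

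The order of the levels, compared per length in FPKM, changed between groups. In Mock it ran Mcl1, Bcl2l1, Bid, Bak1, Cflar, Birc3, Birc2, Bad, Bcl2l11 and Bcl2a1b, and only Bad and Bcl2l11 overlapped as neighbours. In M1 Cflar and Bak1 stood behind Mcl1 and Bcl2l1, and Birc3 overlapped Bid, as did Bcl2l11 and Birc2. In I Birc3 and Bid again overlapped, while Bcl2l11 had moved above Bad without overlap. Mcl1, Bcl2l1 and Bcl2a1b held the first, next and last place in every group.

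The rest of the pathway was followed in lists of 73 other genes, of which 64 were found and 9 (Bcl2l10, Bcl2a1c, Bok, Hrk, Bik, Moap1, Birc7, Septin4 and Fasl) are not analysed here. The 64 rows that passed the filter on low values include Bcl2l2 in 2 rows, of which the second is of uncertain identity. They held 28 higher, 30 lower and 6 not passing in M1 against Mock, and 20, 17 and 27 in I against M1. The split depends on the scaling, since RLE gave 33 higher and 23 lower in the former and 29 and 16 in the latter. In I against Mock 24 were higher and 33 lower, which RLE turned into 37 and 22. The shares of all genes tested are given for library-total scaling. They were 30.5% higher and 55.3% lower in M1 against Mock, and 24.9% and 39.3% in I against M1. For I against Mock they were 28.2% and 58.6%. No shares with RLE are given, so the RLE counts here and in the lists below cannot be set against them. Bcl2l14 passed the filter only through its level in I, and Tnfsf10 only through its level in Mock. Without these and the second Bcl2l2 row, in a setting added after the data had been seen, the 61 rows left held 27 higher and 29 lower in M1 against Mock and 18 and 17 in I against M1.

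Of 5 other pro-survival rows, Bcl2a1a and Bcl2a1d included, 4 rose in M1 and none fell (median log2 fold change 0.54, all genes -0.23). In I against M1 3 fell and none rose (median -0.67, all genes -0.065). Among all genes tested, 30.5% were higher and 55.3% lower in M1, and 24.9% and 39.3% in I against M1. Without the second Bcl2l2 row, which passed neither test, the medians over 4 rows were 0.70 and -1.06. Bcl2 itself, the founding member, was low at 3.33 ± 0.083 FPKM in Mock cells, 3.78 ± 0.099 in M1 cells and 2.00 ± 0.069 in I cells, and fell with iodide (log2 fold change -0.67, limma adjusted p = 4.02e-07). Set beside the members, Mcl1 rose with iodide where Bcl2, Bcl2a1a and Bcl2a1d fell. The small fall of Bcl2l1 passed with library-total scaling and did not pass with RLE.

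Of 8 further pore and BH3-only genes, 7 rose and 1 fell in M1 (median 0.33), where 30.5% and 55.3% of all genes tested did. In I against M1 4 rose and 3 fell (median 0.088), where 24.9% and 39.3% of all genes tested did. Bcl2l14 is among those that rose in both, and without it 6 of 7 rose in M1 (median 0.40), and 3 rose and 3 fell with iodide (median -0.084, with the sign turned). The gene that fell in M1 was Bmf, a BH3-only protein released on detachment and stress, at 2.42 ± 0.24 FPKM in Mock cells, 0.747 ± 0.072 in M1 cells and 3.20 ± 0.28 in I cells. Its log2 fold change was -0.97 in M1 (limma adjusted p = 1.09e-07) and 1.27 in I against M1 (limma adjusted p = 8.19e-08). The mitophagy receptor genes Bnip3 and Bnip3l rose in both steps, Bnip3 from 35.0 ± 2.6 to 84.2 ± 1.6 and 128 ± 12 FPKM (log2 fold changes 1.25 and 0.59, limma adjusted p = 8.18e-09 and 1.81e-05). Bbc3, which encodes PUMA, went the other way with iodide, from 52.1 ± 3.8 in M1 to 38.5 ± 0.97 FPKM (-0.42, limma adjusted p = 1.52e-05).

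The next list holds inhibitor of apoptosis (IAP) genes and their antagonists. Of 9 tested, 1 rose and 8 fell in M1 (median -0.77), where 30.5% of all genes tested were higher and 55.3% lower. In I against M1 3 rose and 2 fell, where 24.9% and 39.3% of all genes tested did. With RLE 5 rose and 2 fell, for which no share over all genes is given. Xiap, the direct caspase inhibitor, fell from 21.9 ± 1.1 to 9.99 ± 0.76 FPKM (-1.06, limma adjusted p = 3.96e-09) and was at 10.8 ± 0.19 in I. Birc5, which encodes survivin and also serves in mitosis, fell from 12.0 ± 0.84 to 1.59 ± 0.16 in M1 and to 0.829 ± 0.11 FPKM in I (-2.33 and -0.50, limma adjusted p = 5.91e-11 and 7.91e-05). Birc6 fell from 13.7 ± 0.55 to 4.74 ± 0.25 FPKM and was higher in I than in M1 (6.71 ± 0.42 FPKM, 0.43, limma adjusted p = 3.68e-05). Birc3 rose in M1, where 8 of these 9 fell (7 with RLE). Those 8 include the antagonist genes Htra2 (-0.84) and Diablo (-0.14), and the 1 that rose was the antagonist gene Xaf1 (0.09).

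At the receptors, 11 of 18 death receptor and TNF receptor pathway genes rose and 7 fell in M1 (median 0.26). Tnfsf10 is among those that fell, and without it 11 of 17 rose and 6 fell. Of all genes tested, 30.5% were higher and 55.3% lower in M1. Fas, a death receptor gene, rose from 3.15 ± 0.33 to 24.9 ± 1.6 FPKM (2.64, limma adjusted p = 8.63e-12), and Tnfrsf1b, the gene of a TNF receptor that recruits cIAPs, rose from 10.8 ± 0.4 to 216 ± 3.3 FPKM (4.20, limma adjusted p = 2.35e-15). Neither passed in I against M1 (0.09 and -0.01, limma adjusted p = 0.201 and 0.805). With iodide 7 of the 18 rose and 2 fell (12 and 1 with RLE), and without Tnfsf10 6 of 17 rose and 2 fell (11 and 1 with RLE). The shares over all genes tested were 24.9% higher and 39.3% lower in I against M1 with library-total scaling, and none is given for RLE. The necroptosis kinase gene Ripk3 rose from 31.7 ± 0.92 to 44.7 ± 1.8 FPKM (0.48, limma adjusted p = 1.1e-06).

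Of 13 caspase and apoptosome genes, 4 rose and 6 fell in M1 (6 and 4 with RLE), and 3 rose and 5 fell in I against M1 (5 and 5 with RLE). Without RLE, both pairs of counts lie near the shares over all genes tested. Those were 30.5% higher and 55.3% lower in M1, and 24.9% and 39.3% in I against M1. Casp6, an executioner caspase gene, rose in both steps, from 2.16 ± 0.065 to 8.19 ± 0.42 and 17.9 ± 0.11 FPKM (1.54 and 1.04, limma adjusted p = 3.3e-11 and 9.04e-09). Apaf1, the apoptosome scaffold, also rose in both, from 9.29 ± 0.35 to 12.2 ± 0.3 and 19.2 ± 0.38 FPKM (0.36 and 0.61, limma adjusted p = 2.52e-06 and 1.54e-07).

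The last list holds genes that act on the stability or binding of MCL1, BIM and BAD. Of 11 tested, 1 rose and 8 fell in M1 (4 and 6 with RLE), and 3 rose and 2 fell in I against M1. Over all genes tested with library-total scaling, 30.5% were higher and 55.3% lower in M1, and 24.9% and 39.3% in I against M1. Huwe1, a ubiquitin ligase of MCL1, fell from 27.6 ± 0.77 to 6.92 ± 0.16 FPKM (-1.85, limma adjusted p = 2.83e-11), and so did Usp9x, a deubiquitinase of MCL1, from 26.8 ± 1.2 to 9.74 ± 0.53 FPKM (-1.37, limma adjusted p = 2.26e-10). In I Huwe1 was at 8.59 ± 0.67 FPKM (0.27 against M1, limma adjusted p = 0.000605), and Usp9x at 9.25 ± 0.37 (-0.07, limma adjusted p = 0.24). Fbxw7, another MCL1 ligase gene, was at 5.05 ± 0.08, 2.84 ± 0.34 and 3.88 ± 0.12 FPKM in Mock, M1 and I. The 2 that fell from M1 to I were Ppp3ca, from 7.01 ± 0.27 to 4.94 ± 0.16 FPKM, and Ywhae, from 153 ± 2.9 to 133 ± 3.5 FPKM. Transcripts of an MCL1 ligase and of its deubiquitinase thus both fell in M1.

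**Figure D5:**
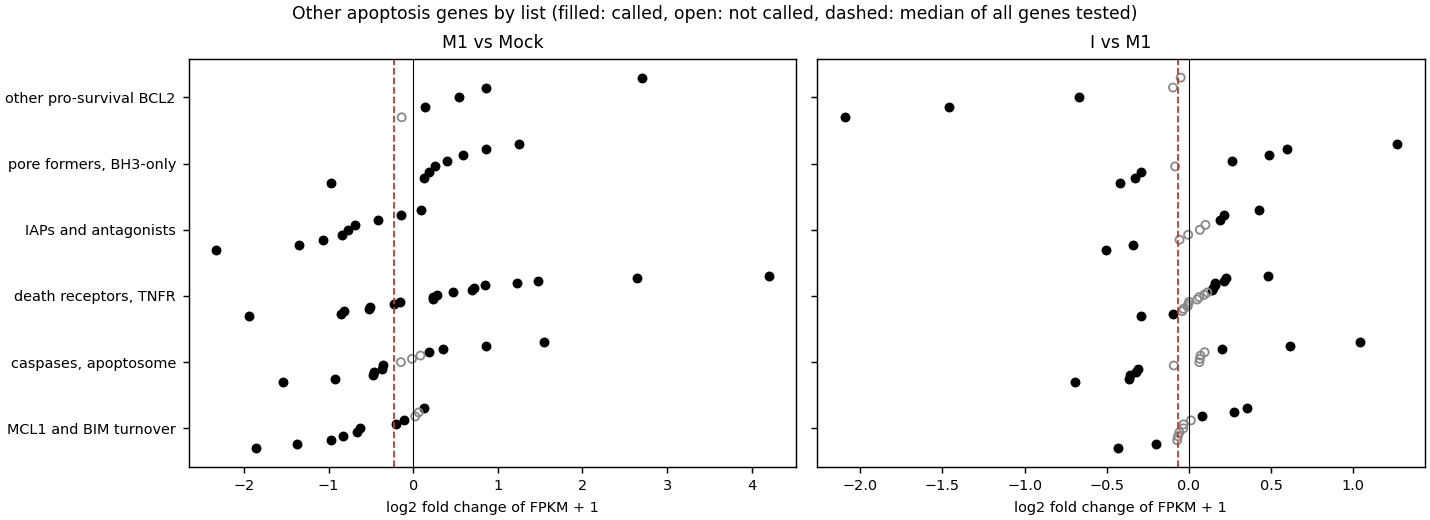
Log2 fold changes of FPKM + 1 in M1 vs Mock and I vs M1 for the 6 lists of other apoptosis genes, 1 point per gene, filled where the limma test was passed and open where not, with the median of all genes tested as a dashed line. The list of IAPs and antagonists lies mostly below 0 in M1 vs Mock (8 of 9 lower, against 55.3% of all genes tested). The other pro-survival genes lie lowest in I vs M1 (median -0.67).

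The genes with the most similar pattern were sought among 5390 genes whose highest group mean reached 10 FPKM, by the Euclidean distance between their log2 fold changes in M1 vs Mock and I vs M1. Med10 (distance 0.037) and Aldoc (0.045) were nearest to Bcl2l1. Jmjd6 (0.027) and Plscr1 (0.038) were nearest to Mcl1, Lrrfip2 (0.023) and Plek (0.024) to Bad, and Atg9a (0.036) and Cd9 (0.038) to Cflar.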

How the data were processed

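RNA was measured by poly(A)-selected sequencing in 9 RAW264.7 libraries, 3 per group. The authors deposited FPKM, and no header names the unit, which was inferred from the numbers. The submitters' processing notes name fastp 0.20.1, HISAT2 2.2.1 and featureCounts 2.0.1 (Subread) with GRCm38. The settings, the strand use and the gene models are not stated there. No row holds a 0 in any library, so genes at 0 somewhere are not analysed here. FPKM times GENCODE vM21 exon length gave whole fragments (within 0.05) for all 10 members in all libraries, and for 12001 of 12216 rows with a matched length. 7 genes are listed in 2 rows.

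limma 3.58.1 (R 4.3.3) was fitted to log2(FPKM + 1) of all 9 libraries with an intensity trend and a term per group, for rows with at least 0.5 FPKM in at least 3 libraries (11156 kept, 1318 removed, all 10 members kept). P-values were Benjamini-Hochberg adjusted over all rows, with calls under 0.05. Fold changes on this scale understate low genes, and ratios are of mean FPKM. RLE scaling moved the median of all genes from -0.23 to 0.016 in M1 vs Mock and from -0.30 to 0.004 in I vs Mock, so falls are relative to the library total. Ratios within libraries were tested by exact permutation. Sequence identity was computed with Biopython 1.88.

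The members and lists were chosen with earlier results of these data known. Named genes are the members, up to 3 genes per list with the smallest p in M1 vs Mock and in I vs M1, of which the text gives some, and the 2 nearest patterns for the 4 members with the largest changes. Alternatives were 2 other pseudocounts, other filters, 4 other scalings, limma-voom on recovered fragments, no trend, only the 6 libraries compared, a replicate block and leaving out each library.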

Additional observations from a re-analysis of the deposited data

How the results depend on the processing

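Of 570 alternative fold changes of the members, leaving aside the summed copies, 538 kept their direction and side of the threshold, 17 lost the call and 15 reversed. The reversals concern 3 genes whose intervals span 0. Bcl2a1b in M1 vs Mock was -0.13, -0.07 and -0.05 without Mock replicate 3, M1 replicate 2 and M1 replicate 3 (range over left-out libraries -0.13 to 0.18), and 0.13 in I vs Mock with quantile scaling. Bad in I vs M1 was 0.030 with RLE and blocked RLE, 0.032 with trimmed-mean, 0.0076 with quantile scaling and 0.0078 without I replicate 2 (range -0.074 to 0.0078). Bak1 in I vs Mock was 0.35 with RLE and blocked RLE, 0.36 with trimmed-mean, 0.19 with upper quartile, 0.10 with quantile scaling and 0.023 without I replicate 2 (range -0.042 to 0.023), and each of these scalings called it higher, so that the members higher in I vs Mock went from 6 to 7. Among counts of members, the 2 lower became 1 in M1 vs Mock (trimmed-mean, quantile), in I vs M1 (RLE, upper quartile, trimmed-mean, quantile, no trend, blocked RLE, and 1 to 2 over left-out libraries) and in I vs Mock (RLE, trimmed-mean, quantile, blocked RLE). List genes higher in I vs Mock went from 24 to 37 with RLE and trimmed-mean, and those lower from 33 to 20 with quantile scaling. With the copies summed, 8 members were higher in M1 vs Mock, and 3 lower in I vs M1 and in I vs Mock. The cause was not tested. Same-numbered libraries of different groups did not deviate together (correlations -0.12 to 0.047). The labels do not say whether equal numbers mean a shared culture or batch, and correlations of this kind cannot exclude it. With the replicate block the member counts were 7 and 2, 5 and 2, and 6 and 2, as without it, and the blocked list counts were 28 and 30, 20 and 17, and 24 and 32. Depth limits Bcl2a1b most, at 8 to 28 fragments per library.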
